A study of Mus musculus with 84 samples.

Results

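Genes known for their high expression in astrocytes were read out in single patch-clamped neurons. The 10 genes were Slc1a2, Slc1a3, Glul, Slc4a4, Aqp4, Gja1, Gfap, Aldoc, Clu and Apoe. They were chosen by name, and all 10 were found among the 19685 gene symbols of the count table. The study collected 84 single neurons by patch pipette from acute prefrontal cortex slices of untreated C57/BL6/N mice, and amplified the RNA with the aRNA method, a linear amplification by in vitro transcription. The titles mark 25 neurons with F and 59 with P. The series title names fast-spiking cells (GABAergic interneurons) and pyramidal cells (glutamatergic projection neurons), whose initials fit these letters, but no label spells them out. The labels give no animal, age or sex, so each letter is 1 sample. No test between F and P cells was possible, no p-value was computed, and every difference below is a description of these cells.

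Astrocytes are the glia that wrap synapses and vessels. They take up glutamate through membrane transporters and turn it into glutamine, buffer potassium and water, couple to each other through gap junctions, and secrete lipid-carrying apolipoproteins. Their fine processes touch the soma of cortical neurons, and astrocytic transcripts are a usual item in quality checks of patch-pipette RNA. The 10 genes are not equally restricted. Aqp4, Gja1, Gfap and Slc1a3 are textbook astrocyte markers of adult cortex, whereas Slc1a2, Aldoc, Glul, Clu and Apoe are also transcribed in some neurons or in other glia.

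Depth differed widely between cells. The total per F cell was 36594 to 12043599 counts (median 680044), and that per P cell 19802 to 16251918 (median 2706396). The 16 F libraries numbered 13 to 28 stood apart. All 16 had counts of 18 genes that were found in at most 25% of the other 68 cells. None of the 10 astrocyte genes was among the 18. Most of the 10 could not be, since they were found in too many of the other cells, such as Slc1a2 in 47 P cells. Their absence from the 18 thus says little about these libraries. Values are also given without these libraries where they matter. The median total of the 16 was 246319 counts, against 2707087 in the other 9 F cells. Levels are counts per 1000000 counts of the cell (CPM), so that 1 count equals 27.3 CPM in the shallowest F cell and 50.5 CPM in the shallowest P cell. Libraries F11 and F12 had closely similar profiles, with a Pearson correlation of 0.96 across genes, which are not independent replicates. Intervals on shares of cells are exact Clopper-Pearson 95% intervals over cells. They do not cover differences between animals. Reads of amplified RNA carry no molecular identifiers here and cannot be taken as separate molecules.

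Astrocyte transcripts were found in most of the neurons, but sparsely and unevenly. At least 1 of the 10 was present in 24 F cells (96%, interval 79.6 to 99.9%) and 54 P cells (91.5%, interval 81.3 to 97.2%). The median number found was 3 in F cells (quartiles 2 and 6, range 0 to 8) and 4 in P cells (quartiles 3 and 6, range 0 to 10). At least 3 were found in 17 F cells (68%, interval 46.5 to 85.1%) and 45 P cells (76.3%, interval 63.4 to 86.4%). The intervals of the F and P cells overlapped widely. When each cell was thinned to 86539 counts, which left out 3 F and 6 P cells, the expected share with at least 3 was 40.4% in F and 49.4% in P cells. The summed level of the 10 had a median of 944 CPM in F cells (range 0 to 9748) and 1159 CPM in P cells (range 0 to 100848). Without Slc1a2 the order turned, with a median of 495 CPM over F cells and 150 CPM over P cells. Only 1 F cell, F25, and 5 P cells, P29, P35, P43, P53 and P60, had no count of any of them.

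Of the glutamate uptake genes, Slc1a2 was found in 65 of the 84 cells, the most of the 10, Glul in 45 and Slc1a3 in 36. Slc1a2 encodes GLT-1, the main glutamate transporter of cortical astrocytes (ENSMUSG00000005089.15, mm10 chromosome 2, 102658659 to 102790784, plus strand). Counts were present in 18 F cells (72%, interval 50.6 to 87.9%) and in 47 P cells (79.7%, interval 67.2 to 89.0%). Levels ran from 0 through a median of 4.52 to 4616 CPM in F cells and from 0 through a median of 118 to 91515 CPM in P cells. The ranges overlapped, and when each F cell was paired with each P cell, the F cell was the higher in 35.3% of pairs, the P cell in 59.1%, and 5.69% were tied at 0. After thinning the expected share was 48.6% in F and 74.9% in P cells. The mean was 612 CPM (SD 1386, n = 25) in F cells and 3114 CPM (SD 12168, n = 59) in P cells, a log2 fold of -2.34. A single P cell, P27, held 49.8% of the P sum, and without it the log2 fold was -1.38. The fold was -2.20 among cells base-called with bcl2fastq 1.8.4 (3 F and 6 P cells, here the older batch) and -2.33 among the other 22 F and 53 P cells (the newer batch). Among the 10 genes, Slc1a2 and Aldoc were the ones at least 2-fold lower in F cells under each of the 15 alternatives computed.

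Slc1a3 encodes GLAST, the second astrocytic glutamate transporter (ENSMUSG00000005360.14, chromosome 15, 8634124 to 8710764, minus strand). Counts were present in 9 F and 27 P cells (36% and 45.8%), at low levels in nearly all of them. The F cell with the highest level, F21, had 2 counts (51.4 CPM), and the F cell with the most counts, F5, had 15. Among P cells, P37 stood apart with 7533 counts (11968 CPM), while the next, P1, had 898 counts (358 CPM). P37 held 94.0% of the P sum. The log2 fold of the means was -5.13, and -1.19 without P37. The F cell was the higher in 28.5% of pairs and the P cell in 36.8%, and 34.7% were tied at 0.

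Glul encodes glutamine synthetase, which converts glutamate to glutamine (ENSMUSG00000026473.15, chromosome 1, 153899944 to 153909723, plus strand). Detection reached 12 F cells (48%, interval 27.8 to 68.7%) and 33 P cells (55.9%, interval 42.4 to 68.8%). Its range was 0 to 6999 CPM in F cells and 0 to 8517 CPM in P cells, and the means of 467 and 565 CPM differed by a log2 fold of -0.27. The Glul fold was under 2 in either direction, and its sign turned to 0.13 without the highest P cell, P21. The older batch gave -1.18 and the newer -0.20. All 3 uptake genes were found together in 5 F and 20 P cells.

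**Figure D1:**
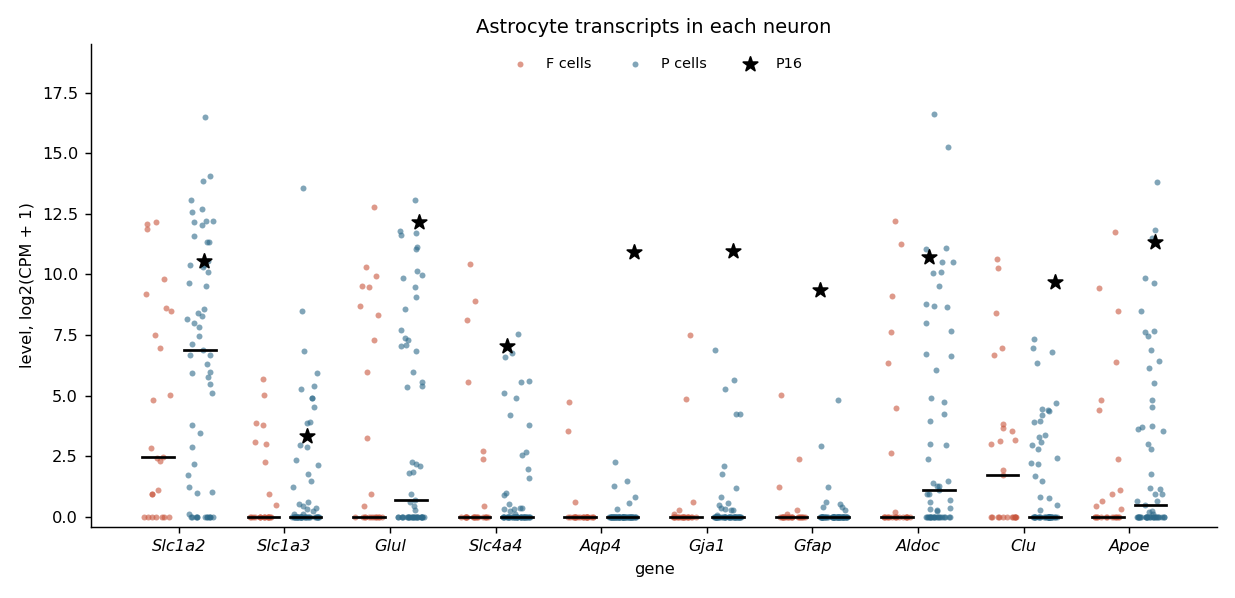
Level of each of the 10 astrocyte transcripts in every neuron, as log2(CPM + 1) on the vertical axis, with F cells in red, P cells in blue and bars at the group medians; the star is neuron P16. Medians were at or near 0 for most genes, Slc1a2 in P cells had the highest median (118 CPM), and P16 was the highest cell for Aqp4, Gja1 and Gfap.

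Aqp4, Gfap and Gja1 were found in the fewest cells, 10, 14 and 22 of the 84. Aqp4 encodes aquaporin-4, the water channel of astrocyte endfeet. Only 3 F cells (12%, interval 2.55 to 31.2%) and 7 P cells (11.9%, interval 4.91 to 22.9%) had a count. F11, F21 and F22 had 1 count each. In P cells the counts were 16809 in P16, 33 in P22, 6 in P62, 3 in each of P25, P54 and P66, and 2 in P38. One cell, P16, thus held 99.6% of the P sum of CPM. The log2 fold of the means was -3.80 with P16 and 1.11 without it, and the second value rests on 3 counts in F cells, 2 of them in libraries with under 100000 counts.

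Gja1 encodes connexin 43, the main gap junction protein of astrocytes (ENSMUSG00000050953.10, chromosome 10, 56377330 to 56402513, plus strand). Counts were present in 5 F and 17 P cells (20% and 28.8%). P16 had 17011 counts (1992 CPM), and P33, the next P cell, had 812 counts (117 CPM). Among F cells only F2, with 1011 counts (183 CPM), and F13, with 8 counts, had more than 1 count. Its log2 fold was -2.04 with P16 and 0.84 without it, and the older batch, which holds F2, gave 2.58 against -4.18 in the newer.

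Gfap encodes the intermediate filament of astrocytes (ENSMUSG00000020932.14, chromosome 11, 102887336 to 102900912, minus strand). Gfap had counts in 5 F and 9 P cells (20% and 15.3%). P16 had 5631 counts (659 CPM), P44 had 66 counts and P62 had 28. In F cells F5 had 35 counts, F7 had 12, and F1, F6 and F19 had 1 each. The log2 fold of -2.34 became 0.62 without P16.

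Slc4a4 encodes the sodium bicarbonate cotransporter NBCe1, which astrocytes use to regulate pH (ENSMUSG00000060961.14, chromosome 5, 88886818 to 89239653, plus strand). Counts were present in 7 F cells (28%) and 23 P cells (39%), and at the thinned depth in an expected 21.8% and 17%, the reverse order. Its mean was higher in F cells, at 86.8 against 12.4 CPM (log2 fold 2.72). The F level rested on F2 (7531 counts, 1360 CPM), F1 (2234 counts, 474 CPM) and F14 (240 counts, 280 CPM), which held 97.4% of the F sum. P cells reached at most 188 CPM, in P34. F1 and F2 are both in the older batch, and the log2 fold was 6.0 there and 0.24 in the newer batch. With the means trimmed by 20% at each end it was -0.06. F cells were the higher in 24.9% of pairs and P cells in 31.1%, with 43.9% tied at 0.

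P16 stood apart from the other cells, and the fold of Aqp4, Gja1 and Gfap turned on it. It had counts of all 10 genes, with 4557 CPM of Glul, 2555 CPM of Apoe, 1992 CPM of Gja1, 1968 CPM of Aqp4, 1691 CPM of Aldoc, 1504 CPM of Slc1a2, 820 CPM of Clu, 659 CPM of Gfap, 133 CPM of Slc4a4 and 9.25 CPM of Slc1a3. Of the 10 genes, 3 were highest in P16 of all 84 cells, against 1.5% of the 11324 measured genes (those with counts in 8 cells or more). P16 was singled out after its values were seen, so that count is a description. The same cell held 22 of 43 other astrocyte genes, 9 of 20 oligodendrocyte genes, 8 of 17 microglial genes and 5 of 14 endothelial and mural genes. Other cells held more, up to 28 other astrocyte genes (P62), 14 oligodendrocyte genes (P22), 17 microglial genes (P2) and 8 endothelial and mural genes (P34). The levels in P16 were uneven within each list. Ugt8a (myelin) was at 3803 CPM, but Mog, Mag, Sox10 and Olig1 had no count. Trem2 (microglia) was at 1710 CPM, but Tyrobp, Ctss, C1qb and Aif1 had none. Itm2a (listed as vascular) was at 1097 CPM, but Cldn5, Flt1, Pecam1 and Cdh5 had none. Neuronal genes were present too, with 1525 CPM of the synaptic protein gene Snap25, 1663 CPM of Stmn2 and 970 CPM of the cortical projection neuron factor Tbr1. The summed level of 15 pan-neuronal genes was 3292 CPM in P16, place 66 of 84, and Slc17a7, Camk2a, Syt1 and Thy1 had no count there.

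Aldoc encodes aldolase C, a brain glycolytic enzyme enriched in astrocytes (ENSMUSG00000017390.15, chromosome 11, 78322968 to 78327781, plus strand). Counts were present in 8 F cells (32%, interval 14.9 to 53.5%) and 38 P cells (64.4%, interval 50.9 to 76.4%). After thinning these shares were 28.3% and 41.4%. Levels reached 4779 CPM in F cells, in F14, and 99980 CPM in P cells, in P56, with P59 at 39043 CPM. P56 is a shallow library of 29966 counts, of which 2996 were Aldoc. The log2 fold was -3.0 with all cells and -1.49 without P56, and the F cell was the higher in 23.3% of pairs against 52.5% for the P cell, with 24.2% tied at 0. Without the F libraries 13 to 28 it was -6.22, since 3 of them held the highest F levels (F14, F18 and F24). Within the older batch the log2 fold was -1.55, and within the newer -3.0.

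Clu encodes clusterin, also called apolipoprotein J (ENSMUSG00000022037.15, chromosome 14, 65968483 to 65981547, plus strand). Clu had counts in 13 F cells (52%, interval 31.3 to 72.2%) and 26 P cells (44.1%, interval 31.2 to 57.6%). Its mean was 137 CPM over F cells against 25.1 CPM over P cells, a log2 fold of 2.4, and the F cell was the higher in 43.5% of pairs against 29.7% for the P cell, with 26.8% tied at 0. F12 had 4249 counts (1570 CPM), F11 had 2203 (1229 CPM) and F6 had 4039 (335 CPM), and these 3 held 91.5% of the F sum. F11 and F12 are the libraries with closely similar profiles. The log2 fold was 1.71 with the pair averaged as 1 cell and 0.11 without both. Among P cells P16 was the highest (7001 counts, 820 CPM), followed by P22 at 162 CPM.

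Apoe encodes apolipoprotein E, the main lipid carrier released by astrocytes and also made by microglia (ENSMUSG00000002985.16, chromosome 7, 19696109 to 19699188, minus strand). Apoe had counts in 12 F and 33 P cells (48% and 55.9%), and in 6 and 24 of these it had at least 5. At the thinned depth the shares were 15.9% and 35.7%. The highest F cell, F21, had 134 counts in a library of 38902 (3445 CPM). P21 led the P cells with 39629 counts (14557 CPM), followed by P32 with 20295 counts (3677 CPM). The log2 fold of -1.29 shrank to -0.18 without P21, and it was -5.15 without the F libraries 13 to 28. The older batch, with 5 counts of Apoe over its 3 F cells, gave -7.13 and the newer -1.20. The 2 leading P cells were also rich in microglial transcripts. Of 17 microglial genes, P21 had 12, summing to 13507 CPM, and P32 had 16, summing to 25983 CPM, against a median sum of 10.3 CPM over P cells. Other cells with high microglial sums varied in Apoe. F18 (50505 CPM) and P33 (9848 CPM) had no count of Apoe. P14 (15560 CPM) had 933 CPM of it and F26 (11107 CPM) had 701 CPM. The part of microglial transcripts in the Apoe level was not tested. P21 had 5 of 15 pan-neuronal genes, summing to 11 CPM, place 83 of 84, and 12419 CPM of the myelin gene Mbp, the highest of all cells. The library labelled P21 thus lacked most pan-neuronal transcripts. So did the 2 cells with the most Aldoc, P56 with 1 of the 15 (33.4 CPM) and P59 with 2 (405 CPM). Their totals were 29966 and 291038 counts, and the median number found was 7 of the 15 in F and 11 in P cells. P59 did have 771 counts of the glutamatergic gene Slc17a7 (2649 CPM), place 2 of 84.

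Read as folds of group means, 7 of the 10 genes were at least 2-fold lower in F cells and 2 were at least 2-fold higher. Among the 11324 measured genes, 46.4% were at least 2-fold lower in F cells and 18.5% at least 2-fold higher. Their median log2 fold was -0.79, against -2.19 over the 10. By trimmed means the medians were 0 and -0.06, and by the difference of mean log2(CPM + 1) they were -0.15 and -0.23. Cell against cell, the F cell was the higher in a median of 26.7% of pairs over the 10 genes and the P cell in 34%, with 30.8% tied. Over all measured genes these medians were 17.1%, 22% and 60.5%. Ties at 0 were most frequent for Aqp4 (77.6% of pairs) and Gfap (67.8%). Detection was lower in F cells for 7 of the 10, and for 72.8% of all measured genes. The summed level had a log2 fold of -1.95, with -0.54 in the older batch and -2.0 in the newer. With the cell totals scaled by TMMwsp factors it was -4.33.

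**Figure D2:**
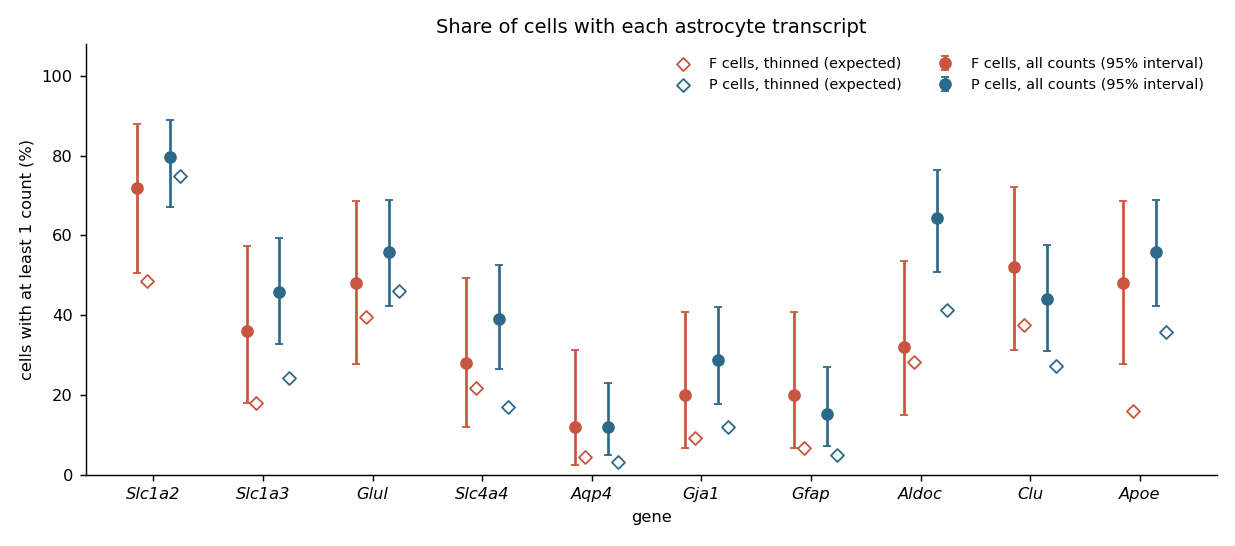
Percent of F cells (red) and P cells (blue) with at least 1 count of each gene, with exact 95% intervals, and as diamonds the share expected when every cell is thinned to 86539 counts. Slc1a2 was found most often (72% and 79.7%) and Aqp4 least (12% and 11.9%); Aldoc had the widest gap (32% and 64.4%), and the intervals of the F and P cells overlapped for all 10 genes.

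Divided by the length of its exons, the mean level in P cells was highest for Aldoc (794 CPM per kb), then Slc1a2 (237), Apoe (212) and Glul (170), and at or under 25.3 CPM per kb for the other 6. The first place of Aldoc leaned on the shallow library P56, which held 65.4% of its P sum. With counts pooled over P cells, before division by length, Aldoc was at 395 CPM, under Slc1a2 (3281), Glul (700) and Apoe (447). In F cells the order began with Glul (141 CPM per kb), Aldoc (99.1), Apoe (86.9) and Slc1a2 (46.6). The 3 lowest in F cells were Slc1a3 (0.609), Gfap (0.361) and Aqp4 (0.237). Before division by length, Slc1a2 had the highest mean of the 10 in P cells (3114 CPM) and in F cells (612 CPM). Whether counts scale with exon length in this amplified RNA was not tested. The SD over cells exceeded the mean for each gene in both groups, and differences between genes in these orders were not tested. A single cell held over 50% of the P sum for 7 of the 10, as it did for 54.4% of all measured genes. In F cells this was so for 7 of the 10 and for 77.5% of measured genes.

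Cells with a given transcript were deeper than cells without it for each of the 10, as for Glul with median totals of 3713190 and 432220 counts, and co-detection counts share that depth. Slc1a2, found in 77.4% of all cells, was present in 21 of 22 cells with Gja1, 13 of 14 with Gfap, 41 of 45 with Glul and 27 of 30 with Slc4a4. It was present in 7 of 10 with Aqp4, fewer than Slc1a3 or Clu. Glul and Apoe were found together in 33 cells, which is 73.3% of the 45 cells with Glul and of the 45 with Apoe. Aldoc was present in 24 of 30 cells with Slc4a4, the highest share for Aldoc. Of the 10 cells with Aqp4, 9 also had Slc1a3 and 8 had Clu, but 5 had Gja1 and 3 had Gfap. P16, P54 and P62 were the cells with Aqp4, Gja1 and Gfap together, and all 3 had all 10 genes. Aqp4, Gja1, Gfap, Slc1a3, Clu and Apoe were in no cell the sole gene found. At the thinned depth of 75 cells the expected number of cells with both Glul and Apoe was 16.6, and with both Aqp4 and Gfap 1.06.

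**Figure D3:**
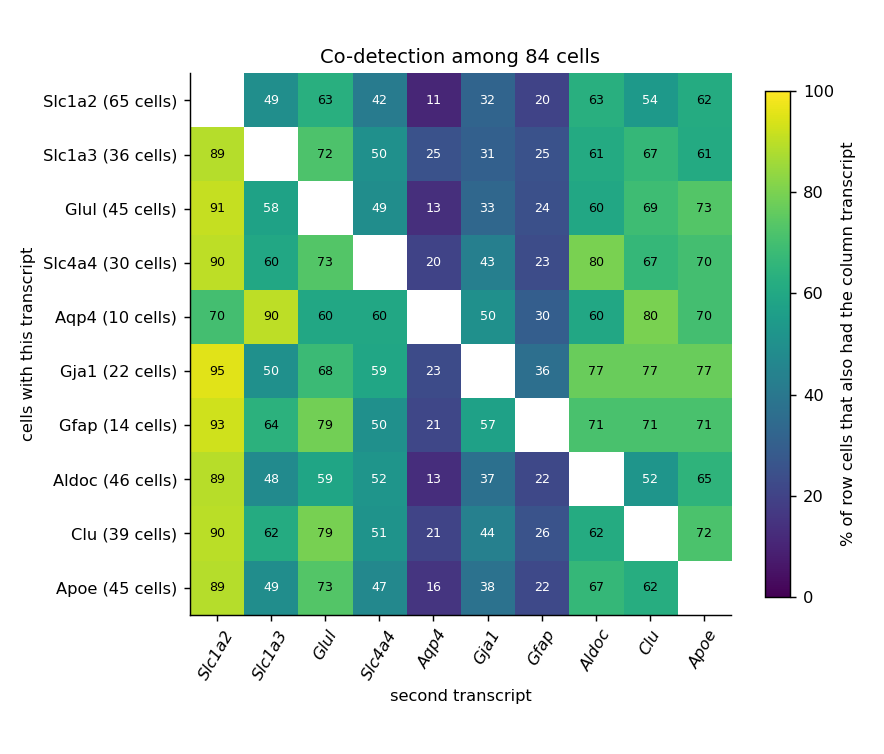
Percent of the cells with the row gene (number of cells in brackets) that also had at least 1 count of the column gene, over all 84 cells. The Slc1a2 column is the brightest, from 70% to 95.5%, and the Aqp4 and Gfap columns are the darkest, since those genes were found in 10 and 14 cells.

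Apart from P16, the cells with the highest summed levels were not those with the most genes. Across cells the 2 did go together. The 30 cells with 1 to 3 genes had a median sum of 37.4 CPM, against 2927 CPM in the 11 cells with at least 8. In 67 of the 78 cells with any of the 10 genes, 1 gene made up over 50% of the summed level, and its median share was 82.5%. The leading gene was Slc1a2 in 35 cells, Aldoc in 17, Glul in 10, Apoe in 6, Clu in 4, Slc4a4 in 3, Slc1a3 in 2 and Gja1 in 1, and Aqp4 or Gfap in none. The summed level passed 1% of the counts in 8 P cells and in no F cell. In 6 of these, 1 gene gave at least 80% of it: Aldoc in P56 (99.1%) and P59 (81.8%), Slc1a2 in P27 (96.2%), P71 (99.97%) and P61 (93.6%), and Slc1a3 in P37 (98.9%). P27 had counts of 2 genes, P37 and P59 of 3, P56 of 4, and P61 and P71 of 6. The other 2 of the 8 were P21, where Apoe gave 63%, and P16, where the leading gene, Glul, gave 28.7%.

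By contrast, 11 cells had at least 8 of the genes, namely F1 and 10 P cells (P2, P4, P16, P22, P25, P26, P44, P54, P55 and P62). Their summed levels ran from 368 to 15887 CPM with a median of 2927, and all but P16 were under 1% of the counts. All 11 had at least 2258798 counts and 10 to 15 of 15 pan-neuronal genes. P54 had all 10 astrocyte genes at a sum of 3063 CPM, of which Slc1a2 gave 2606, while Aqp4 had 3 counts and Gfap 8. P62 also had all 10, at 2910 CPM, mostly Aldoc (1450 CPM) and Slc1a2 (1270 CPM).

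**Figure D4:**
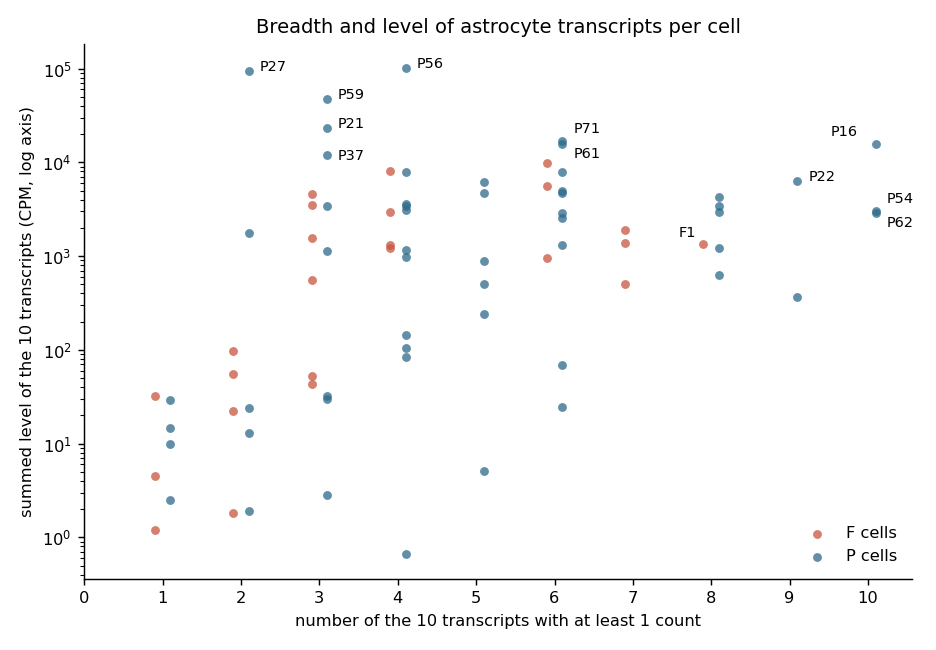
Summed level of the 10 transcripts (CPM, log axis) against the number of them with at least 1 count, for the 78 cells with any, F cells in red and P cells in blue. P27, P56 and P59 have the highest sums with 2 to 4 genes, and P54 and P62 have all 10 genes at about 3000 CPM; P16 combines 10 genes with 15887 CPM.

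The number of genes found moved with depth. Over the 84 cells its Spearman correlation was 0.66 with the total counts and 0.74 with the number of all genes found, and it was 0.51 in F cells and 0.65 in P cells for total counts. With cells thinned to equal depth, the expected number still correlated with the original total, at 0.39 over 75 cells. The median was 6 in the 9 F cells outside the libraries 13 to 28 and 3 in those 16. In the older batch all 9 cells had at least 3 of the genes, with totals of 2510479 counts or more. The number of astrocyte genes found correlated in the same cells with the number of other astrocyte genes (0.82), pan-neuronal genes (0.73), oligodendrocyte genes (0.61), microglial genes (0.58) and vascular genes (0.23). All of these share the depth of the library, and how much of each is depth was not tested.

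**Figure D5:**
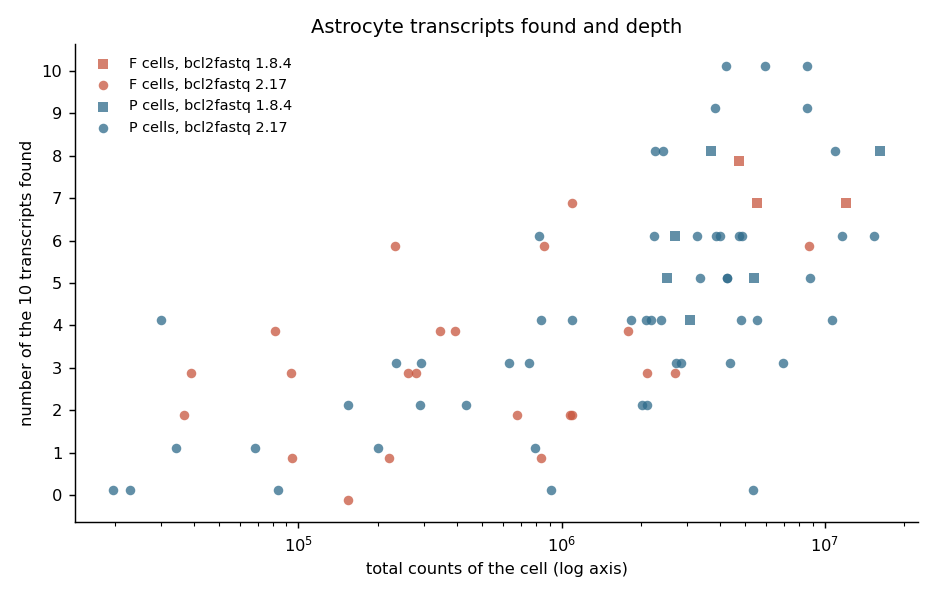
Number of the 10 transcripts found against the total counts of the cell (log axis), with F cells in red, P cells in blue, and squares for the older batch. Cells with 8 or more genes all had at least 2258798 counts, but some deep cells had few, such as P29 with 5320235 counts and none.

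The genes whose levels over the 84 cells were most like those of each astrocyte gene were ranked by Spearman correlation of log2(CPM + 1), among the 5337 genes found in 21 or more cells. For Slc1a2 they were Scd2 (0.55), a lipid desaturase, Usp7 (0.54) and Kif5a (0.52), a neuronal kinesin, and Glul came at place 5. For Glul they were Pcnp (0.56), Eef1g (0.54) and the metallothionein Mt1 (0.54), with Slc1a2 at place 10 and Apoe at place 13. For Apoe they were Mt1 (0.52), Glul (0.49) and Slc48a1 (0.47). For Aldoc they were Rbmx (0.49), Tmem167 (0.47) and Slc4a4 (0.46). Clu was most like Fam168a (0.59), Rnf220 (0.58) and Pdap1 (0.58), Slc1a3 like Rasa3 (0.53), Sri (0.51) and Top1 (0.50), Slc4a4 like Dixdc1 (0.58), Aifm1 (0.54) and Txnl1 (0.54), and Gja1 like Ift20 (0.54), Agap3 (0.53) and Etv1 (0.51). After thinning, Glul and Apoe were each at place 9 of the other's ranking, and Slc4a4 at place 10 for Aldoc, while Agap3 fell to place 1927 for Gja1. Other named genes fell too, such as Dixdc1 to place 937 for Slc4a4, Rbmx to 319 for Aldoc and Fam168a to 370 for Clu. Rnf220 rose to place 1 for Clu. The summed level was most like Mt1 (0.50), Kif5a (0.48) and Cpox (0.44) outside the 10. Over the 56 ordered pairs of the 8 genes found in at least 21 cells, a gene's partner lay within the nearest 10% of all genes in 20 and within the nearest 1% in 6, with a median place at 22.3%. After thinning, 15 pairs lay within the nearest 10%, and the median place was at 26%.

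Of 43 other genes of astrocytes, all in the table, 31 were measured. In F cells 10 of these were at least 2-fold higher and 10 at least 2-fold lower, with a median log2 fold of -0.24, beside the 18.5%, 46.4% and -0.79 of all measured genes. Cst3 (cystatin C) had counts in 14 F and 45 P cells, Sparcl1 (hevin) in 13 and 45, and Ndrg2 in 10 and 36. Ppp1r3c had a log2 fold of 4.94, with F7 holding 99.9% of the F sum. Mt2 had -6.32 and Htra1 -4.98. Several defining astrocyte genes were near 0, with Aldh1l1 found in 3 cells, Slc7a10 in 7, and Cldn10 and Hes5 in 2 each, a set named after its values were seen. Others of the list were found more often, such as Sox9 in 45 cells and S100b in 21, also named with their values seen. The summed level of the 43 ran from 45.2 to 230711 CPM in F cells and from 0 to 108188 CPM in P cells.

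Transcripts of other non-neuronal cells were present at lower medians. The summed level of 20 oligodendrocyte genes, 19 of them in the table, had a median of 53.1 CPM in F cells (range 0.542 to 21411) and 28.6 CPM in P cells (range 0 to 12496), with Mbp in 44 cells. For 17 microglial genes it was 6.58 CPM (range 0 to 50505) and 10.3 CPM (range 0 to 25983), with Cx3cr1 in 40 cells. For 14 endothelial and mural genes, 13 of them in the table, it was 1.99 CPM (range 0 to 3163) and 0.783 CPM (range 0 to 1566), with Acta2 in 20 cells and Vwf in 15. No gene of these lists was at 0 in all cells. Genes of the neuronal classes were also split between the letters. All 8 measured GABAergic genes were at least 2-fold higher in F cells (Gad1 log2 fold 3.50, Kcnc1 1.92), and all 11 measured glutamatergic genes at least 2-fold lower (Nrgn -1.14, Camk2a -1.53). Over all measured genes these shares were 18.5% and 46.4%. Detection was not confined to 1 letter, but shares of cells differed between them for some genes. Gad1 was found in 18 of 25 F and 27 of 59 P cells, and Camk2a in 14 F and 41 P cells. Among the genes with a wider gap were Baiap2 (3 F and 46 P cells), Sv2b (2 and 32) and Lhx6 (8 and 4), named with their values seen. Pvalb of the GABAergic list, found in too few cells to be measured, had counts in 2 F and 5 P cells. The pan-neuronal genes summed to a median of 18146 CPM over F cells and 16720 CPM over P cells.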

How the data were processed

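The authors deposited whole-number counts, not normalized, 1 row per gene symbol and 1 column per neuron (84). The submitters' processing notes name STAR 2.4.0, the mm10 build and bcl2fastq, version 1.8.4 for 9 cells and 2.17 for 75. Library preparation used the TruSeq Stranded kit, per the labels' protocols. Which counter, annotation, strand setting and filters were used is not given in the sources used here. Cells were grouped by the letter in the title. Each count was scaled to 1000000 counts of its cell (CPM). Folds compare mean CPM of F with that of P cells after adding 1 CPM to each, and genes found in 8 or more cells were called measured. Thinning used the 10th percentile of the totals, 86539 counts, as the exact expectation over draws without replacement, except for the gene ranking, which used 1 seeded draw. Gene models and exon lengths came from GENCODE vM21 on GRCm38, the assembly of mm10. In these models Slc1a2 shares 189 exonic bases with an antisense gene and Glul 116 with Teddm2 and 93 with a miRNA gene, and none of these was in the count table.

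The 10 genes, the other lists, the naming rules and the alternatives were chosen with earlier results of these data known. All 10 genes are named, with the 3 most similar genes of each gene found in at least 21 cells (8 of the 10) and of their sum, and the most often found and most different genes of the other lists; predicted and Rik genes were not ranked. Some genes that the rule names are not reported here. P16, P21, P32 and the genes given for them were singled out after their values were seen. The same holds for Pvalb, Baiap2, Sv2b and Lhx6 and for the other cells given with microglial sums. It also holds for the pan-neuronal counts of P56 and P59 and for Slc17a7 in P59. No p-value was computed because the labels name no animal. Alternatives were a limit of 5 counts or 10 CPM, thinning, totals without Rn45s, TMMwsp factors from edgeR 4.0.16, pooled counts, means trimmed by 20%, mean log2(CPM + 1), a pseudocount of 10 CPM, each batch alone, no Slc1a2, and sets of left-out libraries. The fold, thinning and ranking were tested on simulated data. Python 3.11.15 with pandas 2.3.3 and scipy 1.17.1, and R 4.3.3, were used.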

Additional observations from a re-analysis of the deposited data

How the results depend on the processing

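No paired analysis was possible because the numbers shared by F and P titles only name cells and no result comes from a test. The share of cells with at least 3 of the genes depended on the detection limit. It was 36% of F and 49.2% of P cells at 5 counts, 36% and 40.7% at 10 CPM, 40.4% and 49.4% after thinning, and 100% of both in the older batch. The median number found in F cells was 7 in the older batch. It was 6 when F libraries 13 to 28 were left out. The summed log2 fold was -4.33 with TMMwsp factors, -1.33 with pooled counts, -0.95 with trimmed means, -0.53 with mean log2(CPM + 1) and -0.54 in the older batch, and it stayed below 0 in each alternative. Genes at least 2-fold lower in F cells numbered 3 with trimmed means, 2 with mean log2(CPM + 1) and 4 without P16 (added with the data in view). Those at least 2-fold higher numbered 0, 1, and 3 in these settings, and 1 in the newer batch and 1 without F11 and F12 (also added with the data in view). With no filter on low counts, 31.3% of 19685 genes were at least 2-fold lower and 14.3% higher in F cells, and with a minimum of 21 cells 48.2% and 17.5% of 5337.

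Some folds changed sign. Without P16, also the highest P cell of each, they were 1.11 for Aqp4, 0.84 for Gja1 and 0.62 for Gfap. With mean log2(CPM + 1) they were 0.056 for Aqp4 and 0.014 for Gfap. In the older batch they were 2.58 for Gja1 and 0.0595 for Gfap, and with trimmed means -0.065 for Slc4a4. Glul, under 2-fold with all cells, was -3.02 with TMMwsp factors, -1.42 without libraries under 100000 counts and 0.23 with trimmed means. Apart from these and the values given with each gene, folds past 2 dropped under 2 for Slc1a3 (-0.15), Gja1 (-0.057) and Clu (0.85) with trimmed means, for Slc1a3 (-0.37), Slc4a4 (0.35), Gja1 (-0.24) and Apoe (-0.71) with mean log2(CPM + 1), for Gja1 (-0.87) without the F libraries 13 to 28 and for Gfap (-0.92) with a pseudocount of 10 CPM. Aqp4 and Gfap had trimmed means of 0 in both groups, and Aqp4 had no count in the older batch. The causes were not tested. In libraries under 100000 counts, 1 count already passes 10 CPM.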
